A study of Mus musculus with 24 samples.

Results

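The 10 genes described here carry glucose into a cell, split it and move lactate: the glucose transporters Slc2a1 and Slc2a3, the hexokinases Hk1 and Hk2, the phosphofructokinase Pfkm, the pyruvate kinase Pkm, the lactate dehydrogenases Ldha and Ldhb, and the monocarboxylate transporters Slc16a1 and Slc16a3. They were chosen by name, through the gene name that the scanner files give each gene probe. They are 10 of the 37074 names given there. The 10 genes have 21 such probes among the 56605 gene probes of the authors' table, and each gene was followed through its probe with the highest mean log2 signal, the other probes serving as a check. All 10 probes used were well above background on all 24 arrays, and they are 10 of the 36409 probes that passed the filter on dim probes and were tested.

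RNA was taken from efferent nerve fibres (EN, ventral root) and afferent nerve fibres (AN, dorsal root) of the L4-L6 segments of C57BL/6 mice of both sexes at birth (P0) and at 1 W, 3 W or 5 W of age, and each of the 8 groups had 3 arrays. Fibres of several animals were collected in 1 tube per group, so that an array measures a pool of animals and a mixture of cells, and the methods describe the 3 arrays of a group as independent experiments without saying how each relates to that tube. The p-values measure the spread between these arrays, which may in part be technical. The study compared the fibres with each other at each age and each age with P0. Arrays of the same replicate number were hybridized on the same slide for EN and AN, and their deviations from the group means went together, so that AN and EN arrays form 12 pairs. Differences between groups are log2 differences of group means. A gene was called when its p from limma, adjusted by the Benjamini-Hochberg method over all tested probes, was below 0.05. In such bulk samples, fewer cells of a type and less RNA per cell cannot be told apart.

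Arrays had median signals of 45.38 to 190.6 and median backgrounds of 23 to 46, and 55.09% to 71.74% of gene probes were well above background. All 10 myelinating Schwann cell markers were above background on all arrays. AN replicate 3 of 3 W stood apart from its group by high sensory neuron markers (mean log2 of 12.96, where the others had 8.72 and 8.49), and calls that turn on it are given with and without it. The skeletal muscle markers were uneven within the AN groups, with means of 12.30, 9.68 and 13.27 at 3 W and of 12.57, 8.87 and 8.78 at 5 W. Slides held different ages: all arrays of 3 W lay on 1 slide, with no array of P0 or 1 W, so that for 3 W the slide and the age can be told apart only through the arrays of 5 W. Probe positions are those of mm9, as the scanner files give them, and no annotation of that build was used here to place them in exons.

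Glycolysis turns glucose into pyruvate in the cytosol. Pyruvate then either enters the mitochondria or is reduced to lactate by lactate dehydrogenase, and lactate crosses membranes through monocarboxylate transporters. In peripheral nerve, Schwann cells are known to take up glucose and to pass lactate to the axons they wrap, and axons can take up glucose themselves. The subunit encoded by Ldha is usually linked to tissues that make lactate and the subunit encoded by Ldhb to tissues that use it.

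From P0 to 5 W, Slc2a1, Ldhb, Pfkm and Slc16a1 rose in both fibres, and Ldha and Slc16a3 fell in both. Slc2a1 rose the most, by 2.31 ± 0.21 in EN and 2.15 ± 0.21 in AN on the log2 scale (SE, n = 3 arrays a group). Of the 10 genes, 7 were called in EN at 5 W against P0 (4 higher, 3 lower) and 6 in AN (4 higher, 2 lower). Among all tested probes 54.1% were called in EN (28.2% higher and 26% lower) and 50.6% in AN (26.4% higher and 24.2% lower), so these shares lie close to the background. The median difference of the 10 genes was 0.11 in EN and 0.36 in AN, against 0.04 and 0.03 over all tested probes. By the thresholds in the study's methods, a fold change over 2 and p under 0.05 without adjustment, 2 of the genes were called in EN against 30.7% of all probes and 3 in AN against 28.9%.

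Most of the movement lay between P0 and 3 W. At 1 W, 4 genes were called against P0 in EN and 2 in AN, where 27.1% and 21.7% of all probes were. At 3 W the counts were 7 in EN and 7 in AN, beside 55% and 51.7% of all probes. From 1 W to 3 W, 3 genes were called in EN and 5 in AN, beside 27.4% and 29.9%. From 3 W to 5 W none was called by limma in either fibre, where 2.25% of all probes in EN and 3.67% in AN were, and at an unadjusted p below 0.05 there were 0 in EN and 1 in AN, Slc2a1 (0.69, adjusted p = 0.0839 with limma). Without AN replicate 1 of P0 this rise of Slc2a1 was called (0.69, adjusted p = 0.0456). With the slide as a block, Hk2 (0.61) and Slc2a1 (0.89) were called in AN, where 4.38% of all probes were.

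**Figure D1:**
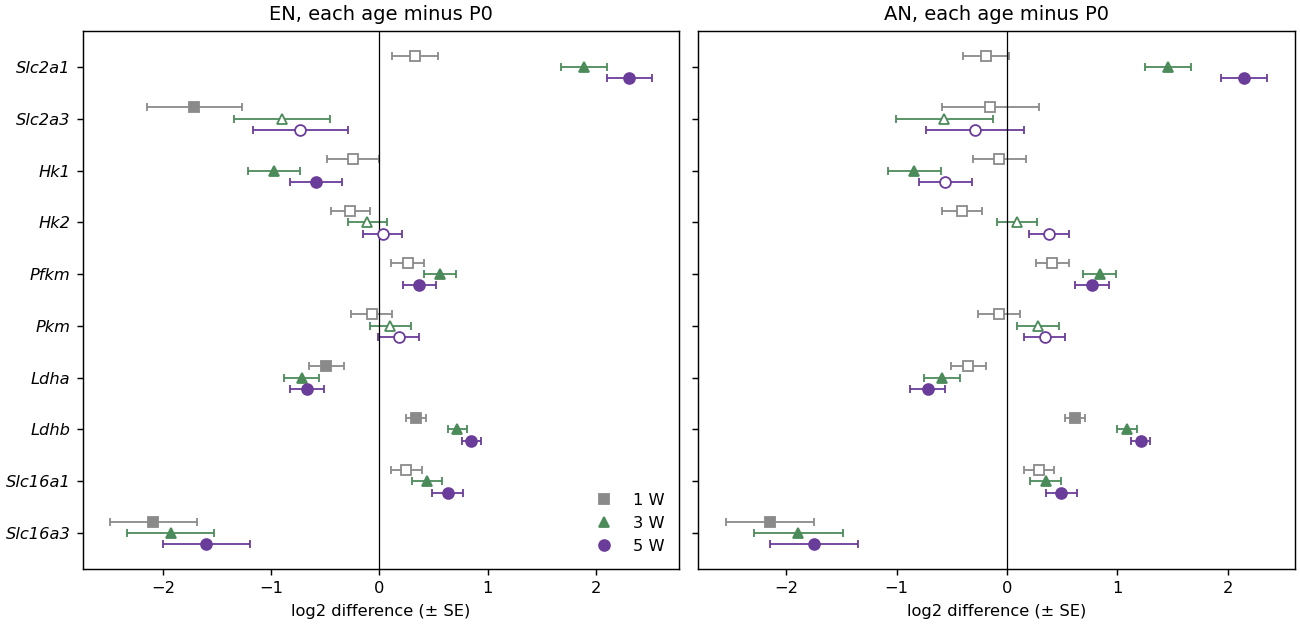
Log2 difference from P0 of each gene in EN (left) and AN (right) at 1 W (squares), 3 W (triangles) and 5 W (circles), with bars for the standard error of the limma fit. Filled symbols passed an adjusted p below 0.05. Slc2a1 and Ldhb lie to the right of 0 at 3 W and 5 W in both fibres and Ldha and Slc16a3 to the left.

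Against EN, AN had no gene called by limma among the 10 at P0, 3 W and 5 W, where 0.739%, 5.89% and 6.76% of all probes were called (at 5 W 3.52% higher and 3.24% lower). With no adjustment, Ldhb and Hk2 had p below 0.05 at P0, and Hk2 did at 3 W and at 5 W. At 1 W, Slc2a3 was called higher and Hk2 lower in AN, where 4% of all probes were called (2.74% higher and 1.26% lower). The change of the AN-EN difference from P0 was called for none of the 10 at 1 W, 3 W or 5 W, beside 0.0632%, 0.615% and 1.14% of all probes. With no adjustment its p was below 0.05 for Ldhb at all 3 ages and for Slc2a3 at 1 W. Fitted within the pairs of AN and EN arrays, Hk2 was lower in AN at all 4 ages and Ldhb was lower in AN at P0, where the share of all probes called was 3.85% for P0 and 10.8% for 1 W, 21.1% for 3 W and 23.5% for 5 W.

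**Figure D2:**
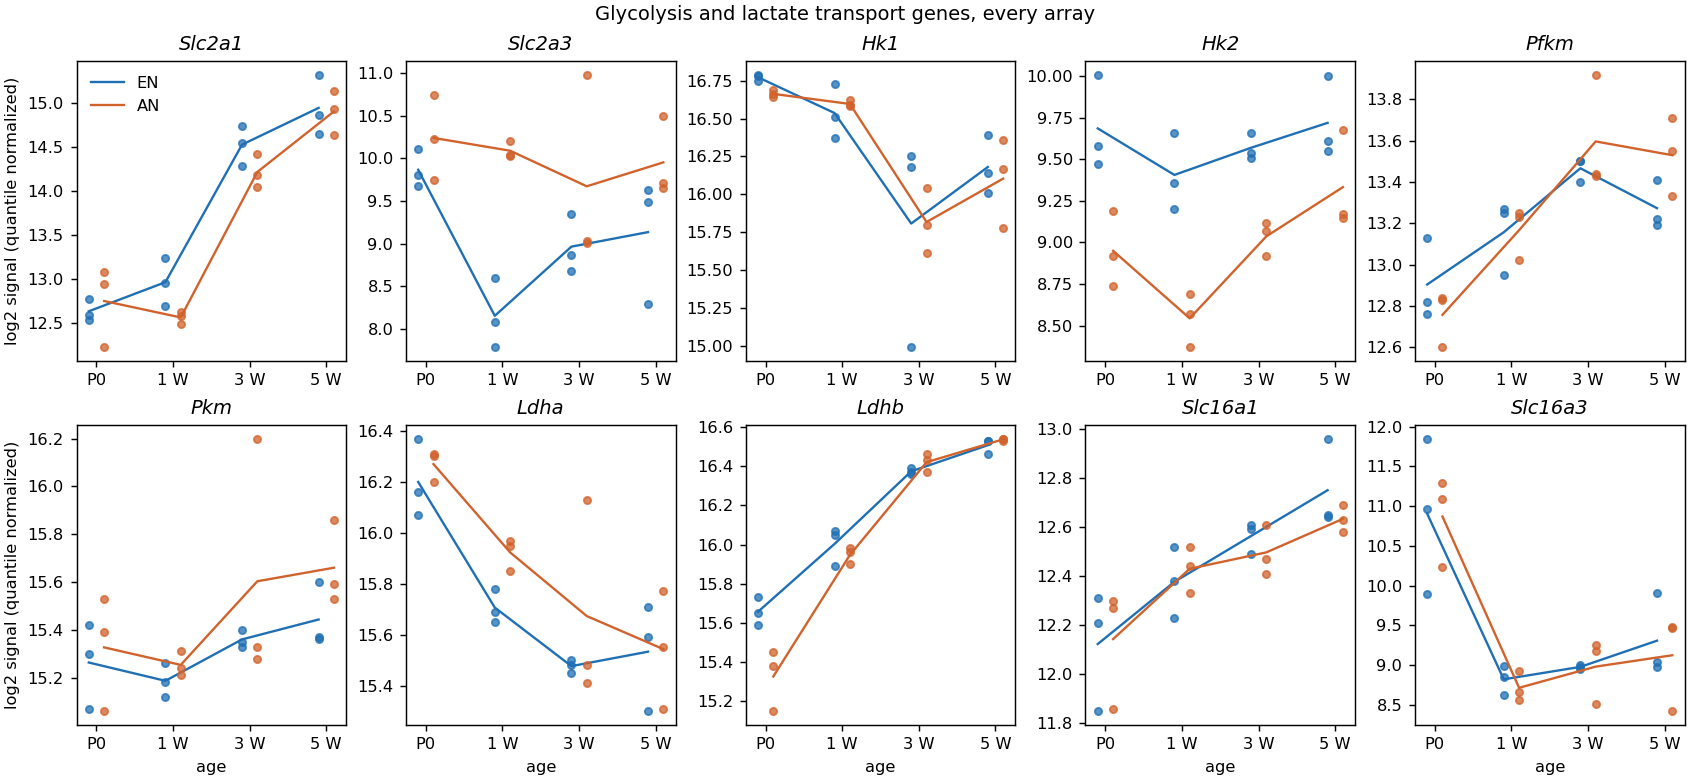
Log2 signal of the 10 genes on every array by age, EN in blue and AN in orange, with lines through the group means. The panels have their own scales, since levels of different probes cannot be set against each other. Slc2a1 climbs between 1 W and 3 W, Slc16a3 drops between P0 and 1 W, and the AN values of Hk2 lie below the EN values at each age except for 1 overlap at 5 W.

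Slc2a1 encodes GLUT1, the glucose transporter of blood-tissue barriers and of many dividing cells. Its probe lies at chr4:118809864-118809923 of mm9. In EN, its log2 signal was 12.54, 12.78 and 12.59 at P0, 12.70, 12.96 and 13.24 at 1 W, 14.74, 14.29 and 14.55 at 3 W, and 14.65, 14.86 and 15.32 at 5 W. The AN arrays read 12.23, 12.95 and 13.08 at P0, 12.58, 12.49 and 12.63 at 1 W, 14.42, 14.18 and 14.05 at 3 W, and 14.64, 15.14 and 14.93 at 5 W. No array of 3 W or 5 W overlapped with any array of P0 or 1 W, in either fibre. Against P0 the rise was 3.70-fold at 3 W and 4.95-fold at 5 W in EN (adjusted p = 5.54e-08 at 5 W), and 2.76-fold and 4.43-fold in AN (adjusted p = 1.4e-07 at 5 W). At 1 W the differences from P0, 0.33 in EN and -0.19 in AN, did not pass the test. On the slide that held arrays of both P0 and 5 W, the difference was 2.18 in EN and 2.12 in AN. In each fibre it rests on 1 array of 5 W and 2 of P0. AN minus EN lay between -0.40 and 0.12 over the ages, with a 95% interval of -0.49 to 0.41 at 5 W.

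The endothelial marker list moved with age in the same direction in EN, its 9 genes summing to 14.07 to 14.51 (log2 of the summed signal) at P0 and 14.81 to 15.32 at 5 W, while in AN the ranges overlapped (14.30 to 15.06 and 14.67 to 15.24). All 9 were above background on every array. Macrophage markers, 7 genes, summed to 13.63 to 13.86 in EN at P0 and to 15.47 to 15.84 at 5 W. In AN they summed to 13.75 to 14.02 and to 15.05 to 15.32. Over the 24 arrays Slc2a1 had r = 0.73 with the endothelial, 0.82 with the macrophage and -0.93 with the proliferating cell markers. The part of these cell types in the rise of Slc2a1 was not tested. The 3 genes whose signal ran most like that of Slc2a1 over the 24 arrays were Adamtsl4 (r = 0.976), Ly6c1 (r = 0.975) and Ism1 (r = 0.974). These correlations describe arrays that share ages and slides.

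The bases before the start are printed for 4 of the 6 genes that rose or fell in both fibres: the one that rose the most, the one that fell the most and the pair of lactate dehydrogenases that moved apart. RefSeq promoters of GRCm38.p6 were given for 9 of the 10 genes (not Slc2a3), with 15 starts in all, from 250 bases before the start to 50 after it. Both strands were searched for the core to which hypoxia-inducible factors bind (ACGTG or GCGTG). It was found in 12 of the 15 promoters of these genes and in 43.8% of 32851 promoters, the E-box CACGTG (which contains ACGTG) in 3 of 15 and 7.15%, the GC box GGGCGG in 6 of 15 and 35.7%, the cyclic AMP response core TGACG in 5 of 15 and 20.8%, and TATAAA in 1 of 15 and 13.6%. The printed part of Slc2a1 has 66.4% G and C, where the median of all promoters is 52.4%. Only the 250 bases before the start (GRCm38.p6, chr4:119108495-119108744, plus strand) are shown, 5′ to 3′, with the hypoxia core on either strand in capitals.
Slc2a1: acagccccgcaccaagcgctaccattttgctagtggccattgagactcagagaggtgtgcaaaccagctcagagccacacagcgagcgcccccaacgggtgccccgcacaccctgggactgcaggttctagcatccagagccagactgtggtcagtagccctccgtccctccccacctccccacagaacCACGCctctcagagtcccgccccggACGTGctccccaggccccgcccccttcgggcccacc

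Slc2a3 encodes GLUT3, the glucose transporter of neurons, and was read by the probe at chr6:122678075-122678134. In EN its log2 signal was 9.68, 9.81 and 10.11 at P0, 7.79, 8.08 and 8.60 at 1 W, 8.68, 9.35 and 8.87 at 3 W, and 8.29, 9.49 and 9.63 at 5 W. The AN arrays read 10.23, 10.74 and 9.75 at P0, 10.03, 10.20 and 10.04 at 1 W, 9.01, 9.03 and 10.98 at 3 W, and 9.65, 10.50 and 9.71 at 5 W. The EN arrays of 1 W are the lowest of their fibre but for 1 array of 5 W, and all lie more than 1 unit below the AN arrays of 1 W. Slc2a3 fell in EN from P0 to 1 W by 1.71 ± 0.44 (SE, adjusted p = 0.00769), and the differences from P0 at 3 W (-0.90) and 5 W (-0.73) did not pass the test. That of 3 W was called on the arrays compared alone and without AN replicate 3 of 3 W. In AN the difference from P0 was -0.15 at 1 W.

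At 1 W, Slc2a3 was 3.82-fold higher in AN than in EN (1.93 ± 0.44 on the log2 scale, adjusted p = 0.0162, higher in all 3 pairs). The call was lost without AN replicate 1, 2 or 3 or EN replicate 1 or 2 of 1 W, where the difference was 1.75 to 1.96 with an adjusted p of 0.0545 to 0.0985. Within the pairs the adjusted p was 0.0197, with a range of 0.000951 to 0.0985 over all alternatives. Over the 12 pairs AN was higher in 10, with differences of -0.36 to 2.24. AN replicate 3 of 3 W stood apart from its group with 10.98. Without it, the difference of Slc2a3 in AN at 3 W was -1.22 against P0 and -1.07 against 1 W, both called (adjusted p = 0.0106 and 0.0344), where with it they were -0.57 and -0.42 and not called.

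The sensory neuron markers went the way of Slc2a3 between the fibres at 1 W, but not from array to array in AN at 5 W. There their means were 10.02, 8.88 and 6.62 in the order of the replicates, and Slc2a3 read 9.65, 10.50 and 9.71. At 1 W the 10 markers summed to 16.26 to 16.61 (log2) in AN and to 10.68 to 12.23 in EN, and 9 of them were called higher in AN. At P0 they summed to 15.10 to 16.79 in AN and 15.01 to 15.73 in EN. AN replicate 3 of 3 W had a mean marker signal of 12.96, where the other arrays of that group had 8.72 and 8.49. Between 8 and 10 of the 10 markers were above background on every array, so none of the groups was free of them. Over the 24 arrays the correlation of Slc2a3 with the mean marker signal was 0.76, a description of arrays that share slides and ages. It was 0.65 with the non-myelinating or immature Schwann cell markers and 0.60 with the astrocyte markers. The part of sensory neuron RNA in the values of Slc2a3 was not tested. The genes most like Slc2a3 were Golga7b (r = 0.943), Phactr1 (r = 0.935) and Fxyd7 (r = 0.933).

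**Figure D3:**
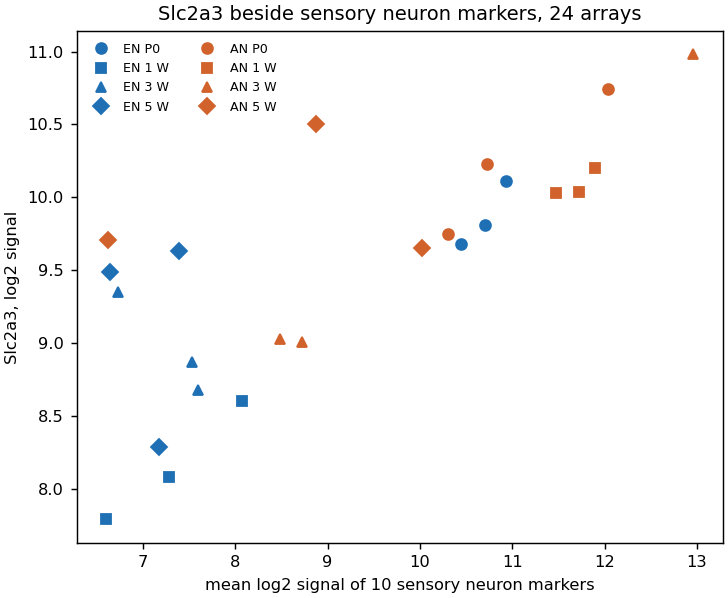
Log2 signal of Slc2a3 on each of the 24 arrays against the mean log2 signal of the 10 sensory neuron markers, EN in blue and AN in orange, with a symbol for each age. The 3 EN arrays of 1 W lie at the lower left and AN replicate 3 of 3 W at the upper right.

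Hk1 and Hk2 encode hexokinases, which phosphorylate glucose as it enters the cell. Hk2, the isoform of muscle and of many growing cells, was lower in AN than in EN in all 12 pairs, with log2 differences of -1.09 to -0.32 (probe at chr6:82675056-82675115). In EN the log2 signal was 9.47, 10.01 and 9.58 at P0, 9.20, 9.36 and 9.66 at 1 W, 9.51, 9.54 and 9.66 at 3 W, and 9.55, 9.61 and 10 at 5 W. The AN arrays read 8.74, 8.92 and 9.19 at P0, 8.37, 8.57 and 8.69 at 1 W, 9.12, 9.07 and 8.92 at 3 W, and 9.15, 9.17 and 9.68 at 5 W. The groups did not overlap at P0, 1 W or 3 W, and at 5 W AN replicate 3 lay within the EN range.

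With the shared spread of all arrays, the AN-EN difference of Hk2 was -0.73 ± 0.18 at P0 (adjusted p = 0.0754), -0.87 ± 0.18 at 1 W (adjusted p = 0.00959), -0.53 ± 0.18 at 3 W (adjusted p = 0.0952) and -0.39 ± 0.18 at 5 W (adjusted p = 0.235), with SE and n = 3 arrays a group. Within the pairs it was called at every age, with adjusted p = 0.0099, 0.00399, 0.0138 and 0.044 in the order of age. Over all alternatives the adjusted p at P0 lay between 0.00265 and 0.401. At 1 W it lay between 0.000692 and 0.056, at 3 W between 0.00567 and 0.266, and at 5 W between 0.029 and 0.561. Without AN replicate 1 of 1 W the difference at 1 W was -0.78 and not called (adjusted p = 0.056). The change of the difference from P0 to 5 W, 0.35 ± 0.26, did not pass the test.

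Among the marker lists, that of non-myelinating or immature Schwann cells was higher in AN at every age, with sums of 15.31 to 15.89 against 14.77 to 15.12 at P0 and 14.10 to 14.57 against 12.89 to 13.81 at 5 W. The fibroblast markers overlapped between the fibres at P0 (18.80 to 19.28 in AN, 18.74 to 19.15 in EN) and were lower in AN at 5 W (18.75 to 19.19 against 19.22 to 19.50). The macrophage and endothelial markers were lower in AN from 1 W on by their mean log2 level, with differences of -0.24, -0.42 and -0.49 for the first list and of -0.51, -0.50 and -0.26 for the second at 1 W, 3 W and 5 W, after 0.14 and 0.55 at P0. For the skeletal muscle markers that difference was -1.32, -0.72, 1.06 and -0.06 in the order of age. The myelinating Schwann cell markers had -0.82, -0.22, -0.09 and 0.13, and the erythroid cell markers -0.05, -0.19, -0.87 and -0.79. Oligodendrocyte markers had -0.12, 1.03, 0.50 and 1.47, and astrocyte markers 0.13, 0.85, 0.57 and 1.20. By the same measure the motor neuron markers were lower in AN at every age (-0.23, -0.70, -0.77 and -0.97). Of these 5 markers, 2 to 4 were above background on an array. The sensory neuron (0.33, 4.38, 2.77 and 1.44) and proliferating cell markers (0.74, 0.55, 0.77 and 0.17) were higher in AN. Over the 24 arrays Hk2 had r = 0.66 with the motor neuron, 0.63 with the fibroblast and -0.62 with the sensory neuron markers. The part of these cell types in the difference of Hk2 was not tested. Bmp7 (r = 0.870), Islr (r = 0.866) and Rhoj (r = 0.841) ran most like Hk2.

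**Figure D4:**
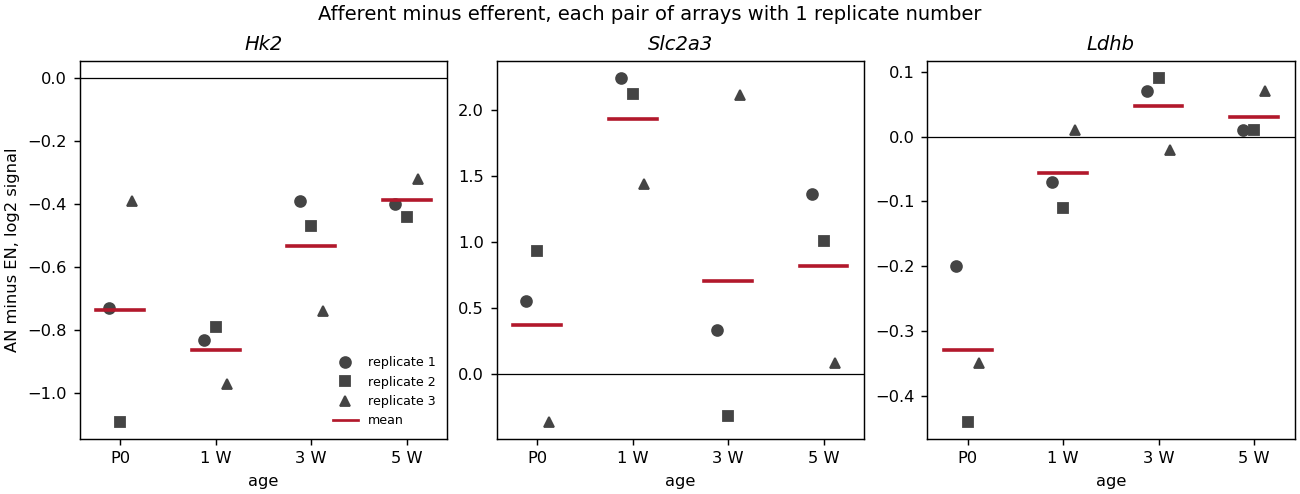
Log2 signal of AN minus EN for each pair of arrays with the same replicate number at each age, for Hk2, Slc2a3 and Ldhb, with the mean of the 3 pairs as a line. Every pair of Hk2 lies below 0, the 3 pairs of Slc2a3 at 1 W lie between 1.44 and 2.24, and those of Ldhb at P0 lie between -0.44 and -0.20.

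Within AN, Hk2 rose from 1 W to 3 W by 0.50 (adjusted p = 0.046). All AN arrays of 3 W lie on 1 slide with none of 1 W, and with the slide as a block the difference was -0.07. In that fit Hk2 was called lower than at P0 in AN at 1 W (-0.37) and at 3 W in EN (-0.64) and AN (-0.43), where without the block the differences were -0.41, -0.11 and 0.09 and none was called. The difference of AN at 5 W from P0, 0.38, was not called (adjusted p = 0.0887), but was with the replicate number as a block and without AN replicate 3 of P0 (0.50). The call of AN from 1 W to 3 W was also lost on leaving out any of 12 of the 24 arrays, with differences of 0.41 to 0.57.

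The probes of Hk1 went different ways. The brightest, at chr10:61731230-61731288 of mm9, fell in EN at 3 W (-0.97) and 5 W (-0.59) and in AN at 3 W (-0.84). Another probe, at chr10:61731856-61731915, showed 0.40 in EN and 0.30 in AN at 5 W against P0 and was not called. The dimmer probes at chr10:61759854-61759913 and chr10:61778284-61815852 were called higher at 5 W in both fibres, the first by 0.91 in EN and 0.63 in AN and the second, above background on 17 of the 24 arrays, by 1.63 and 1.70. On EN replicate 1 of 3 W the brightest probe read 14.99, where the other arrays of that group read 16.18 and 16.25, and without it the EN difference at 3 W was -0.56 (adjusted p = 0.00966). With the slide as a block, or with the mean of all tested probes, the falls of Hk1 were not called, and the mean of the probes was higher at 5 W by 0.58 in EN (adjusted p = 0.00638) and by 0.52 in AN (adjusted p = 0.0147). At 5 W in EN the call was also lost without any 1 of the 3 EN arrays of P0, without EN replicate 1 or 3 of 5 W or without AN replicate 2 of 1 W (-0.61 to -0.51). No direction is therefore given for Hk1 as a gene.

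Pfkm encodes the muscle isoform of phosphofructokinase, the enzyme of the committed step of glycolysis (probe at chr15:97962713-97962772). Its log2 signal lay between 12.60 and 13.13 over the 6 arrays of P0 and between 13.19 and 13.71 over those of 5 W. It rose in AN by 0.84 ± 0.15 at 3 W and 0.77 ± 0.15 at 5 W (adjusted p = 0.000132 and 0.000263), and in EN by 0.56 ± 0.15 at 3 W (adjusted p = 0.00389) and 0.37 ± 0.15 at 5 W (adjusted p = 0.044). The call of EN at 5 W was lost on leaving out any of 10 arrays, with differences of 0.30 to 0.41, and was not made with normexp background correction, without the filter or on the arrays compared alone. AN replicate 3 of 3 W was the highest array, at 13.92. Without it the rise in AN from 1 W to 3 W was 0.27 and not called, where with it it was 0.43 and called, and the difference of AN at 1 W from P0, 0.41, was called (adjusted p = 0.0297, against 0.0584 with it). Camta2 (r = 0.931), Klc4 (r = 0.930) and Tgm4 (r = 0.929) ran most like Pfkm.

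Pkm encodes the pyruvate kinase that makes pyruvate in most tissues outside liver and blood. Its brightest probe was not called in any of the comparisons, with differences from P0 of -0.07 to 0.18 in EN and -0.07 to 0.34 in AN. The log2 signal was between 15.07 and 15.60 on the EN arrays and between 15.06 and 16.20 on the AN arrays, the highest being AN replicate 3 of 3 W. Without that array the difference of AN at 5 W from P0, 0.34, was called (adjusted p = 0.0351). A neighbouring probe of Pkm at chr9:59527030-59527089 (the brightest is at chr9:59527118-59527177) was called higher in AN at 3 W (0.56) and 5 W (0.48). The dimmest probe, at chr9:59520400-59520459, was called lower in AN at 1 W (-0.62) and read -0.44 at 3 W and -0.27 at 5 W, neither called, and the probe at chr9:59518501-59519397 was called nowhere (0.15 in EN and 0.00 in AN at 5 W).

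Ldha and Ldhb moved in opposite directions. Their brightest probes lie at chr7:54110937-54110996 and chr6:142438829-142438888. Ldhb read 15.65, 15.59 and 15.73 in EN at P0 and 16.53, 16.53 and 16.46 at 5 W. In AN it read 15.45, 15.15 and 15.38 at P0 and 16.54, 16.54 and 16.53 at 5 W. The arrays of 1 W (15.89 to 16.07) and 3 W (16.36 to 16.46) lay between, and no 2 ages overlapped within AN or within EN.

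Ldhb rose at each age against P0, by 0.34, 0.72 and 0.85 in EN and by 0.62, 1.09 and 1.21 in AN at 1 W, 3 W and 5 W, all with SE 0.09. The adjusted p at 5 W was 3.33e-07 in EN and 3.1e-09 in AN. With 75th percentile scaling, or on the arrays compared alone, the call of EN at 1 W was lost (adjusted p = 0.117 and 0.0803). A second probe of Ldhb, at chr6:142444206-142447028 of mm9, rose by 0.70 in EN and 1.06 in AN at 5 W. On the slide that held P0 and 5 W, with 1 array of 5 W and 2 of P0 in each fibre, the brightest probe differed by 0.87 in EN. In AN it differed by 1.28.

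At P0, Ldhb was lower in AN by 0.33 ± 0.09 in all 3 pairs (-0.20, -0.44 and -0.35). The adjusted p was 0.123 with all arrays and 0.0234 within the pairs, with a range of 0.0234 to 0.615 over the alternatives. At 5 W the pairs differed by 0.01, 0.01 and 0.07. The change of the AN-EN difference between these ages was 0.36, with an adjusted p of 0.237 over all arrays and 0.0494 within the pairs, where 6.77% of all probes were called, and a range of 0.0494 to 0.666. The myelinating Schwann cell markers moved the same way: their 10 genes summed to 19.16 to 19.49 in AN and 19.74 to 19.93 in EN at P0, and to 20.69 to 20.78 and 20.63 to 20.68 at 5 W. All 10 were above background on every array. Over the 24 arrays, which share ages and slides, Ldhb had r = 0.93 with the mean of these markers. The r was -0.94 for the proliferating cell and 0.87 for the macrophage markers. The part of these cell types in the course of Ldhb was not tested. The genes most like Ldhb over the arrays were Fa2h (r = 0.981), which makes hydroxylated fatty acids of myelin lipids, Kazn (r = 0.979) and Abca2 (r = 0.979).

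Ldha read 16.07, 16.16 and 16.37 in EN at P0, 15.69, 15.78 and 15.65 at 1 W, 15.48, 15.45 and 15.50 at 3 W, and 15.59, 15.30 and 15.71 at 5 W. In AN it read 16.20, 16.30 and 16.31 at P0, 15.85, 15.97 and 15.95 at 1 W, 15.48, 15.41 and 16.13 at 3 W, and 15.77, 15.31 and 15.55 at 5 W. Every array of a later age lay below every array of P0 of the same fibre, the nearest being AN replicate 3 of 3 W.

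Ldha fell in EN, with differences of -0.72 at 3 W and -0.67 at 5 W (adjusted p = 0.00101 and 0.00186), and in AN, with -0.59 and -0.72 (adjusted p = 0.00491 and 0.00103). On the arrays compared alone the AN call at 3 W was lost (adjusted p = 0.0709). At 1 W it fell by 0.49 in EN (adjusted p = 0.0297), a call lost without EN replicate 2 or 3 of P0 or any 1 EN array of 1 W (-0.53 to -0.41). The AN difference at 1 W was -0.35 (adjusted p = 0.139) and was called without AN replicate 3 of 3 W (adjusted p = 0.0473). Without that array Ldha in AN also fell from 1 W to 3 W (-0.48, adjusted p = 0.0133), where with it the difference was -0.25 and not called. A second, dimmer probe fell at 5 W as well (-0.91 in EN and -0.99 in AN). Slc25a25 (r = 0.953), Wdr12 (r = 0.943) and Nme1 (r = 0.939) ran most like Ldha. The proliferating cell markers fell over the same ages, from sums of 15.36 to 15.61 in EN and 15.94 to 16.33 in AN at P0 to 11.42 to 11.89 and 11.68 to 12.01 at 5 W, with all 8 called lower in both fibres. On AN replicate 3 of 3 W Ldha read 16.13. The mean log2 of these markers was 8.98 there, against 9.44 and 9.46 on the other arrays of its group. Over the 24 arrays, which share ages and slides, Ldha had r = 0.80 with that mean. The r was 0.77 for the sensory neuron, -0.88 for the macrophage and -0.83 for the myelinating Schwann cell markers. The part of these cell types in the fall of Ldha was not tested.

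Within an array, the log2 difference Ldhb minus Ldha is free of a scale shared by the array. From P0 to 5 W it grew by 1.52 in EN and 1.93 in AN, and the arrays of these ages did not overlap. An exact two-sided permutation test of 3 arrays against 3 gave p = 0.1, the smallest it can give, and 0.185 after adjustment over the 24 comparisons of this kind. AN minus EN, it was -0.40 at P0 and -0.27 at 1 W, each without overlap and with exact p = 0.1. At 3 W it was -0.16, with overlap, and at 5 W 0.01 (exact p = 0.8). Between AN and EN the exact test left the pairs of arrays out of account.

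**Figure D5:**
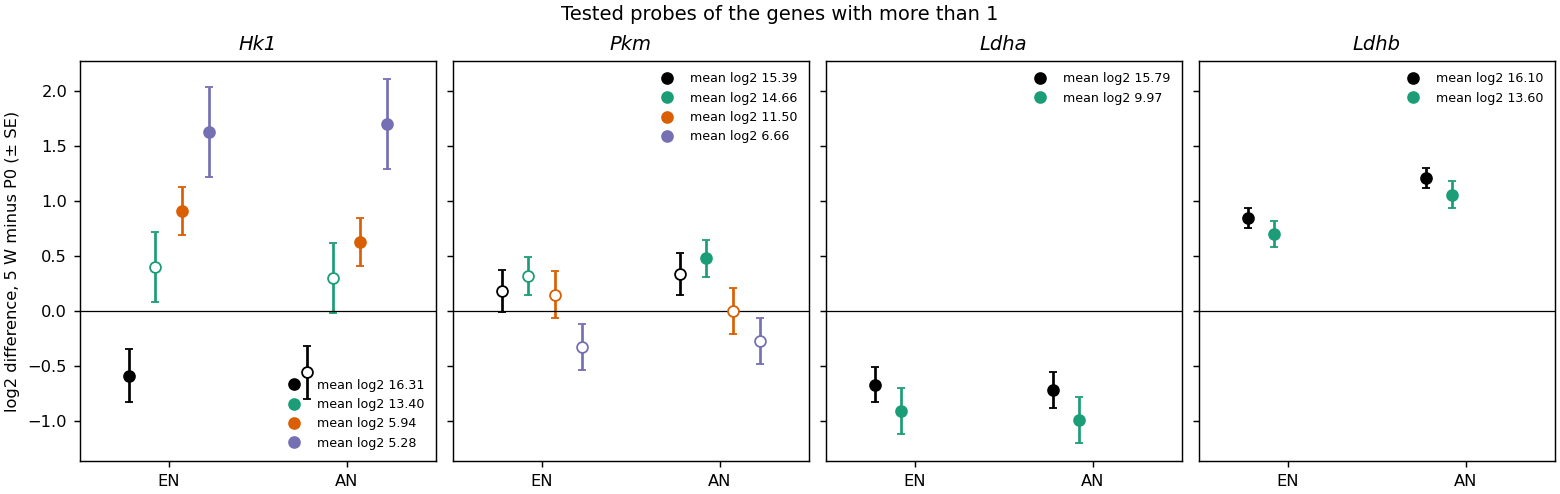
Log2 difference of 5 W from P0 for every tested probe of Hk1, Pkm, Ldha and Ldhb in EN and AN, with the standard error of the limma fit and the mean log2 signal of each probe in the key. Filled symbols passed an adjusted p below 0.05. The probes of Ldha lie below 0 and those of Ldhb above it, while those of Hk1 lie on both sides.

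The promoters of the lactate dehydrogenase genes are shown because the genes moved apart. Of the starts that RefSeq gives Ldha, the one shown lies further upstream. Its 250 bases hold 67.2% G and C, and those of Ldhb 56.4%. They lie at chr7:46845554-46845803, plus strand, and chr6:142507958-142508207, minus strand, of GRCm38.p6, and the capitals again mark the hypoxia core.
Ldha: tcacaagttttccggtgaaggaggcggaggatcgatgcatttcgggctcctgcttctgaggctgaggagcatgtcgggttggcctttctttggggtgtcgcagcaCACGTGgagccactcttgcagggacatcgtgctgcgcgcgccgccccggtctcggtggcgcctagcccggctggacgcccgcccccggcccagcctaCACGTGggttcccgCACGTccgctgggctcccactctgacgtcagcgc
Ldhb: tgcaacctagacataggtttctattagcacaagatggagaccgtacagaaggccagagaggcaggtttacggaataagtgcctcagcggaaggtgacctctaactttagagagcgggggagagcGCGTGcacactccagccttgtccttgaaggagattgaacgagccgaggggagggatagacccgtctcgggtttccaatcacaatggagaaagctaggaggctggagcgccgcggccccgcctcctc

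Slc16a1 encodes MCT1, a monocarboxylate transporter that Schwann cells and oligodendrocytes use to export lactate, and Slc16a3 encodes MCT4, the exporter of strongly glycolytic cells such as fast muscle. Their probes lie at chr3:104460941-104461000 and chr11:120820023-120820082 of mm9. Slc16a3 read 9.90, 11.85 and 10.97 in EN at P0, 8.62, 8.85 and 8.99 at 1 W, 8.95, 9.00 and 8.98 at 3 W, and 9.04, 8.97 and 9.91 at 5 W. In AN it read 10.23, 11.29 and 11.09 at P0, 8.56, 8.66 and 8.92 at 1 W, 9.25, 8.51 and 9.18 at 3 W, and 9.47, 8.42 and 9.48 at 5 W. The P0 arrays were the highest of each fibre but for an overlap of EN replicate 1 of P0 with EN replicate 3 of 5 W.

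By 1 W, Slc16a3 had fallen 4.25-fold in EN and 4.45-fold in AN (log2 -2.09 ± 0.40 and -2.15 ± 0.40, adjusted p = 0.000904 and 0.000799). At 5 W it was 3.03-fold lower than at P0 in EN (adjusted p = 0.0025) and 3.36-fold in AN (adjusted p = 0.0013). The calls were kept on leaving out any array, with differences at 5 W of -2.10 to -1.13 in EN and -2.07 to -1.40 in AN. On the slides that held P0 and 1 W the EN difference was -1.28 and -2.42, and that of AN was -1.66 and -2.27. In each fibre the first slide held 1 array of 1 W and 1 of P0, and the other 1 and 2. The 12 skeletal muscle markers summed to 16.94 to 18.24 in EN and 15.88 to 17.06 in AN at P0, and to 14.06 to 14.98 and 12.56 to 14.06 at 1 W. At 3 W their sums were 15.07 to 15.95 and 14.60 to 17.80, and at 5 W 14.47 to 15.49 and 13.33 to 17.34. In the order of the replicates, the muscle marker means in AN at 3 W were 12.30, 9.68 and 13.27. Slc16a3 read 9.25, 8.51 and 9.18 there. In AN at 5 W the means were 12.57, 8.87 and 8.78, and Slc16a3 read 9.47, 8.42 and 9.48. In EN at P0 they were 11.06, 12.44 and 10.75, beside 9.90, 11.85 and 10.97 for Slc16a3. In AN at P0 they were 11.14, 9.66 and 9.49, beside 10.23, 11.29 and 11.09. Over the 24 arrays Slc16a3 had r = 0.35 with the muscle, -0.84 with the myelinating Schwann cell and -0.65 with the macrophage markers. The part of these cell types in the course of Slc16a3 was not tested. Hoxa10 (r = 0.892), Klk1b26 (r = 0.890) and Egfbp2 (r = 0.884) ran most like it. The bases before its start (GRCm38.p6, chr11:120948817-120949066, plus strand) hold 73.6% G and C and are shown for the gene that fell the most.
Slc16a3: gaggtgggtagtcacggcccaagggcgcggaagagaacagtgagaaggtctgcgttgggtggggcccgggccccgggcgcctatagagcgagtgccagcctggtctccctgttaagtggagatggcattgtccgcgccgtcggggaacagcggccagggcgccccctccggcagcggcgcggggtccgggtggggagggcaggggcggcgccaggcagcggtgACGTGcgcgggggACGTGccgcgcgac

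Slc16a1 lay between 11.85 and 12.31 over the 6 arrays of P0 and between 12.58 and 12.96 over the 6 of 5 W. It rose by 0.63 ± 0.14 in EN (adjusted p = 0.00097) and 0.49 ± 0.14 in AN (adjusted p = 0.00707) at 5 W. At 3 W the rise was 0.44 in EN (adjusted p = 0.0128), lost without EN replicate 2 of P0 (0.30) and with the slide as a block (0.30), and 0.35 in AN (adjusted p = 0.0457), lost on leaving out any of 13 arrays (0.21 to 0.39) and with the slide as a block (0.21). Without AN replicate 2 of P0, the lowest of its group at 11.86, the AN rise at 5 W was 0.35 (adjusted p = 0.0543), and on the arrays compared alone it was not called either (adjusted p = 0.08). AN and EN differed by -0.12 to 0.05 over the ages, with a 95% interval of -0.41 to 0.18 at 5 W. Ifnlr1 (r = 0.913), Tprn (r = 0.904) and Sbds (r = 0.902) ran most like Slc16a1.

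Within an array, Slc16a1 minus Slc16a3 grew by 2.23 in EN and 2.24 in AN from P0 to 5 W, and Slc2a1 minus Slc2a3 by 3.04 and 2.44. The groups did not overlap (each with exact permutation p = 0.1, the smallest possible, and 0.185 after adjustment over the 24). How many other pairs of probes would do so was not counted. Between these ages 54.1% of all tested probes in EN and 50.6% in AN were called singly. At 1 W, Slc2a1 minus Slc2a3 differed by -2.33 between AN and EN and Hk1 minus Hk2 by 0.93. Each again had p = 0.1 in the exact test, which left the pairs of arrays out of account.

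The other genes of the pathway were followed through 8 lists with 79 tested genes. At 5 W against P0, 29 were called higher and 16 lower in EN, and 25 higher and 17 lower in AN, with median differences of 0.18 and 0.03. These are 57% and 53.2% of the pathway genes, close to the 54.1% and 50.6% of all probes called, and the counts of the single lists stand beside the same background. Of the 17 other glycolytic enzymes tested, 4 were called higher and 4 lower in EN, and 4 higher and 3 lower in AN, with medians of -0.16 and -0.10. The aldolase Aldoa rose by 0.86 in EN and 0.93 in AN, Aldoc by 1.41 in AN, and the hexokinase Hk3, a gene of myeloid cells, by 1.92 in EN and 1.42 in AN. The platelet phosphofructokinase Pfkp fell in both fibres (-2.43 in EN and -1.69 in AN), and the muscle enolase Eno3 (-1.98) and Hkdc1 (-1.19) fell in EN. The probe of Hkdc1 was dim, with a mean log2 signal of 4.42 where every array has a median of 6.3109.

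Of the 6 other glucose transporters, 3 were called higher and 2 lower in EN and 1 higher and 2 lower in AN. Slc2a6 rose by 1.46 in EN and 1.24 in AN and Slc2a10 by 0.83 in EN, while Slc2a12 (-0.77 and -0.59) and Slc2a13 (-0.54 and -0.63) fell. Of the 5 enzymes that make or break fructose-2,6-bisphosphate, the activator of phosphofructokinase, 2 were called higher in each fibre: Pfkfb4 by 1.19 in EN and 1.23 in AN and Pfkfb2 by 0.50 and 0.52. Pfkfb1 fell by 0.82 in AN. Among the 5 other genes of lactate handling, Ldhd, a mitochondrial dehydrogenase of D-lactate, rose by 2.08 in EN and 2.42 in AN. Bsg, the chaperone of MCT1 and MCT4, rose by 0.73 in EN, and Emb, another partner of such transporters, fell by 2.18 in EN.

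Of 14 genes by which pyruvate enters the mitochondria, 6 were called higher and 2 lower in EN and 6 higher and 3 lower in AN. The kinases that switch off pyruvate dehydrogenase went both ways: Pdk4 rose by 1.40 in EN and 2.90 in AN and Pdk2 by 1.06 and 1.66, while Pdk1 fell (-1.29 and -1.59). Pcx, which carboxylates pyruvate, rose by 0.89 and 1.00 and the carrier subunit Mpc1 by 0.77 and 0.75, while Pdhb fell (-0.72 and -0.48). Of 10 genes of glycogen metabolism, 3 rose and 2 fell in EN and 2 rose and 2 fell in AN, among them the glycogen synthase Gys1 (-0.84 and -0.86), Pgm1 (-0.87 and -1.38), the liver phosphorylase Pygl (1.14 in EN) and Ppp1r3c (0.76 and 1.16). At 5 W, Pygl and Pgm2 were lower in AN than in EN (-0.92 and -0.80).

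Of 12 regulators, 2 were called higher and 3 lower in EN and 3 higher and 3 lower in AN. Epas1, a hypoxia-inducible factor, rose by 1.96 and 1.34 and Egln1, which marks such factors for decay, by 1.12 and 1.29, while Myc (-1.40 and -1.71), Mlxip (-1.23 and -0.86) and the kinase subunit Prkaa2 (-1.80 and -1.19) fell. Hif1a was not called (-0.14 and -0.06). Of 10 hypoxia-inducible genes outside glycolysis, 7 were called higher and 2 lower in EN and 6 higher and 3 lower in AN, with a median of 0.96 in each fibre. Ndrg1 rose by 2.14 in EN and 3.09 in AN, Ddit4 by 1.99 and 2.11, P4ha1 by 1.93 and 1.91 and Bnip3 by 1.22 and 1.29, while Egln3 (-1.64 and -1.82), Car9 (-0.86 and -0.99) and, in AN, Vegfa (-0.59) fell. The probe of Car9 was dim, with a mean log2 signal of 5.78, below the array median of 6.3109. Ndrg1 is also a gene of myelinating Schwann cells.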

How the data were processed

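Total RNA of 24 samples was labelled with Cy3 and hybridized to Agilent SurePrint G3 mouse arrays. The deposited intensity values are processed signals from Agilent Feature Extraction (version 10.7.1.1), and the deposited log2 table was normalized by quantiles by the authors in GeneSpring. Each column of that table had r = 1 with the quantile-normalized log2 processed signal of its own array, and every column has a median of 6.3109. Control spots were left out, and a gene probe was kept if some group had it well above background on each of its 3 arrays. The 36409 probes kept (64.32%) were fitted with lmFit and eBayes of limma 3.58.1 in R 4.3.3, with 8 group means and 16 residual degrees of freedom. Tables and figures were made with Python 3.11.15, pandas 2.3.3 and matplotlib 3.10.9. The scripts were tested on simulated data. The 10 genes, the pathway and marker lists and the tests were chosen with earlier results of these data known. Named genes are the 10, the 3 other genes most correlated with each over the 24 arrays, and called genes of the pathway lists, of which some are counted but not reported here by name. AN and EN arrays of the same replicate number, which share a slide, deviated together (12 pairs, r of 0.107 to 0.646, each best with its own number), and a fit with the pair as a block was therefore also made. Other alternatives were values rebuilt from the scanner intensity, 75th percentile scaling, normexp background correction with an offset of 50, no filter, the slide as a block, only the arrays compared, the mean of a gene's probes, the thresholds of the study's methods and leaving out each array. The precision of a value is limited by 3 arrays a group.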

Additional observations from a re-analysis of the deposited data

Results flagged for a closer look

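The AN-EN difference of Ldhb changed by 0.36 on the log2 scale between P0 and 5 W. It passed the test within the pairs (adjusted p = 0.0494, range over all alternatives 0.0494 to 0.666). Over all arrays the adjusted p was 0.237. Every pair was below 0 at P0, while at 5 W the pairs read 0.01, 0.01 and 0.07. The difference at 5 W did not pass the test and ran from -0.15 to 0.04 over the alternatives. The second probe of Ldhb had AN-EN differences of -0.47 at P0 and -0.11 at 5 W. Its change of 0.36 was not called (adjusted p = 0.457 with limma). By mean log2 level, the AN-EN difference of the myelinating Schwann cell markers was -0.82 at P0 and 0.13 at 5 W. It was 0.74 and 0.17 for the proliferating cell markers and 0.14 and -0.49 for the macrophage markers. The part of these cell types in the change was not tested.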

How the results depend on the processing

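The 43 calls of the 10 genes were refitted under 8 alternatives: 312 of 344 values kept direction and call, 28 were no longer called and 4 reversed. With the mean of all tested probes, Hk1 against P0 became 0.10 at 3 W and 0.58 at 5 W in EN and 0.04 at 3 W in AN. With the slide as a block, Hk2 in AN from 1 W to 3 W became -0.07. The causes were not tested.

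With the replicate block of AN-EN pairs, the genes called between AN and EN numbered 2 at P0, 1 at 3 W and 1 at 5 W, and 1 for the change of that difference from P0 to 5 W, beside 3.85%, 21.1%, 23.5% and 6.77% of all probes. With the replicate number as a block between ages, Hk2 was gained in AN at 5 W against P0 (7 genes, beside 53.4%). These blocks ended no call. With the slide as a block the counts between AN and EN were 2 at P0, 1 at 3 W and 1 at 5 W (1.96%, 13.4% and 14.7% of all probes), and 2 in AN from 3 W to 5 W (4.38%), and Hk2 was gained in 3 comparisons with P0. In AN from 1 W to 3 W the count was 3 with 75th percentile scaling (28.5%), with the slide as a block (23.7%) and on the arrays compared alone (23.8%). By the methods' thresholds it was 1 between AN and EN at 1 W (4.99%), 2 in EN at each later age against P0 (13.5%, 31.4% and 30.7%), 1 in AN at 1 W (10.3%) and 3 in AN at both 3 W (28.7%) and 5 W (28.9%), 1 in each fibre from 1 W to 3 W (13.6% in EN, 14.3% in AN), and 1 for the change of the AN-EN difference at 1 W (3.8%).

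Leaving out each array gave 0 to 1 calls between AN and EN at P0, 0 to 2 at 1 W, and 0 at 3 W and 5 W. Against P0 it gave 3 to 4, 6 to 8 and 5 to 7 in EN and 2 to 4, 6 to 7 and 5 to 7 in AN at 1 W, 3 W and 5 W. From 1 W to 3 W it gave 2 to 3 in EN and 2 to 6 in AN, and from 3 W to 5 W 0 in EN and 0 to 1 in AN. No change of the AN-EN difference was called. Of the 43 calls, 31 were kept whichever array was left out. The count between AN and EN at 1 W was 0 without AN replicate 1 of 1 W, that in AN at 1 W was 4 without AN replicate 3 of 3 W, and that in AN from 1 W to 3 W was 2 without AN replicate 1 of 1 W.

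Replicate numbers did not pair the ages throughout (36 pairs, r of -0.347 to 0.378, 16 best with their own number). Those best with their own number were mostly of replicate 1, as between P0 and 5 W in AN (r = 0.378) and EN (r = 0.255). The number of arrays, 3 a group, limits the precision of each value.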

Other observations

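At 1 W, 5 of the 79 tested genes of the pathway lists were called higher in AN than in EN and 1 lower (7.59%), where 4% of all probes were called (2.74% higher and 1.26% lower). The neuronal enolase Eno2 was higher by 2.04 (adjusted p = 0.0249), Pfkp by 1.78 (adjusted p = 0.0206), the transporter partner Emb by 4.05 (adjusted p = 0.00891), Prkaa2 by 1.43 (adjusted p = 0.0417) and Myc by 0.96 (adjusted p = 0.0254), and the kinase Pdk1 differed by -0.74 (adjusted p = 0.0107). Of the sensory neuron markers, 9 of 10 were called higher in AN at that age, as were these genes except Pdk1. By mean log2 level, the non-myelinating or immature Schwann cell, oligodendrocyte, astrocyte and proliferating cell lists were also higher in AN. The other lists were lower. The part of these cell types was not tested.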
